A study of Xenopus laevis with 5 samples.

Results

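The genes described here encode the proteasome and the enzymes that attach ubiquitin and related proteins or take them off. They were chosen by name: a probe set belonged to them when the platform annotation gave it 1 symbol that starts with psma to psmg and a digit, ube2, uba and a digit, or usp and a digit. This gave 96 of the 7531 genes that had a probe set with 1 symbol. The L and S copies of a gene, which Xenopus laevis carries as homeologs, were counted as separate genes, so that the 96 stand for 78 genes when copies are merged. Each was represented by its brightest probe set over the 5 arrays. By role they were 11 alpha and 9 beta subunits of the core particle and 6 ATPases and 18 other genes of the regulatory particle. Psmd5.L, psmd9.S and psmd10.L, of these 18, encode assembly chaperones and are counted below with the subunits. The others were 9 activators, inhibitors and assembly factors, 4 activating enzymes (E1), 21 conjugating enzymes (E2) and 18 deubiquitinases of the Usp family.

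All samples were explants of prospective ectoderm (animal caps) from Xenopus laevis embryos that had received synthetic RNA at the 2-cell stage. The explants were cut at stage 9 to 10, kept on fibronectin with 0.1% BSA in the medium, and lysed at stage 22. In 3 samples the RNA encoded ICD alone, and in 2 samples ICD and FoxJ1 together. ICD, commonly the intracellular domain of Notch although the labels do not write it out, was thus common to both groups, and no group without injected RNA was analysed here. FoxJ1 is a forkhead factor of motile cilia, and the comparison asks which genes differ when it is added to ICD. Neither the strain, nor the amount of RNA, nor how many embryos went into a sample is stated, so the p-values measure only a spread between samples that may be technical.

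The proteasome is a barrel of stacked rings that cuts proteins into peptides. The outer rings are made of alpha subunits, which gate the entry, and the inner rings of beta subunits, some of which carry the proteolytic sites. A regulatory particle caps the barrel, where ATPases unfold the substrate and other subunits bind and remove its ubiquitin chains. Ubiquitin reaches the substrate through an E1 enzyme, which activates it, an E2 enzyme, which carries it, and a ligase (E3), and deubiquitinases reverse the step. These genes are used by nearly all cells, and the Notch intracellular domain is among the proteins that this pathway degrades.

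Each of 15491 probe sets other than controls had 1 MAS5 signal per array, and medians per array lay between 62.1 and 73.5. Differences below are on the scale of log2(signal + 16), ICD with FoxJ1 minus ICD alone, from a limma fit over 11618 probe sets. The dimmest 25% had been left out, and with them 4 of the 96 genes, psmb8.L, psme2.L, ube2t.S and usp1.L. Signals of different probe sets cannot be compared as RNA levels.

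With FoxJ1, 3 of the 92 tested genes rose and 0 fell. The genes that rose were psma3.S, a core alpha subunit, psmb9.S, a beta subunit of the immunoproteasome, and usp3.L, a deubiquitinase known to act on histones. They make up 3.26% of the 92, against 4.48% of all probe sets that were higher and 2.99% that were lower. At an unadjusted p under 0.05, 7 genes were higher and 10 lower, where 12.3% of all probe sets were higher and 12.3% lower. A log2 difference of at least 1 was seen in 4 of the 92 (6.06% of all probe sets), and one of at most -1 in 0 of the 92 (4.58%).

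The fit had a median SE of 0.24 for these genes. In 62 of 92, or 67.4%, the 95% interval of the difference lay between -1 and 1 on this scale, on which the added 16 shrinks the differences of dim genes. The same held for 52.5% of all probe sets. The median difference was -0.10, beside -0.03 over all probe sets. It was -0.04 if ICD replicate 1 was left out and -0.05 if ICD+FoxJ1 replicate 1 was. Without ICD replicate 2, ICD replicate 3 or ICD+FoxJ1 replicate 2 it was -0.14, -0.11 and -0.14. Both arrays with FoxJ1 lay above all ICD arrays in 14 genes (21.2% of all probe sets) and below them in 28 genes (23.0%). All 3 calls depended on single arrays: 0 genes rose without ICD replicate 2, without ICD+FoxJ1 replicate 1 or without ICD+FoxJ1 replicate 2. Without ICD replicate 1, 4 rose and 3 fell. When any 1 array was left out, the difference of psma3.S stayed between 0.96 and 1.21. That of psmb9.S stayed between 1.04 and 1.44, and that of usp3.L between 1.18 and 1.45.

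**Figure D1:**
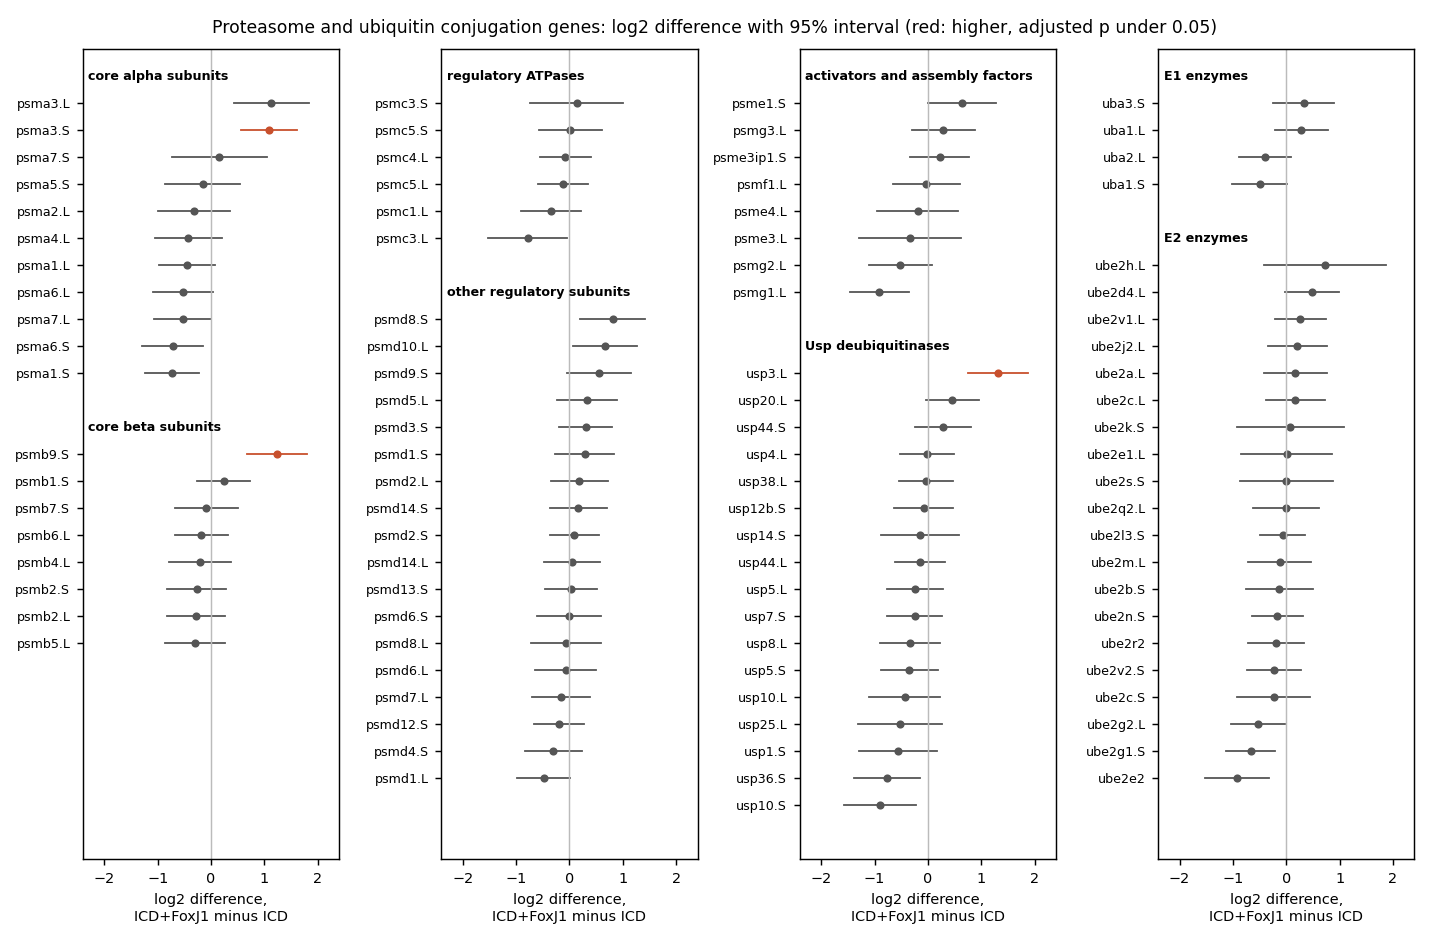
Log2 difference (ICD with FoxJ1 minus ICD alone, on the log2(signal + 16) scale) of the 92 tested genes by role, with points for the estimates and lines for 95% intervals (3 against 2 arrays). Most intervals include 0; psma3.S, psmb9.S and usp3.L, in red, passed the threshold, and psma3.L lies beside them.

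Of the 11 core alpha subunit genes, psma3.S rose and 0 fell, where 4.48% of all probe sets were higher and 2.99% lower. For psma3.S the ICD samples gave signals of 52.6, 49.3 and 51.5, and the FoxJ1 samples 114.8 and 139.0. The groups did not overlap, and the ICD arrays differed little among themselves (SD 1.68, n = 3). The log2 difference was 1.09 (SE 0.22, limma adjusted p = 0.0286). Without ICD replicate 3 the adjusted p of psma3.S was 0.0788, besides the losses named above.

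The L copy of psma3 was measured by a brighter probe set, with 685.3, 443.8 and 894.6 against 1348.0 and 1541.5. The groups again did not overlap, but the ICD arrays spread more widely. Its difference of 1.13 (SE 0.30) was of the size of the S copy's and did not pass (limma adjusted p = 0.0650). A further probe set, which the annotation assigns to psma3.L and psma3.S together and which therefore measures neither alone, read 462.0, 285.1 and 425.6 against 931.2 and 845.8. It rose by 1.18 (SE 0.26, limma adjusted p = 0.0355). Probe sets for one copy can bind RNA of the other, so these 3 readings are not independent.

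The remaining alpha subunit genes did not share the direction of psma3. Of the other 9, 8 lay below 0, where 6033 of 11618 probe sets did. The median over all 11 was -0.43, and it lay between -0.28 and -0.50 when any 1 of the 5 arrays was left out. Psma1.S stood at 276.4, 304.2 and 314.0 under ICD alone against 164.1 and 183.3, a difference of -0.73 (limma adjusted p = 0.0909). Psma6.S differed by -0.72, psma7.L by -0.53, psma6.L by -0.53 and psma1.L by -0.45, each with both arrays with FoxJ1 below all ICD arrays and none past the threshold. In all, both arrays with FoxJ1 lay below in 5 of the 11 genes, and in 23.0% of all probe sets. Psma2.L, psma4.L and psma5.S differed by -0.32, -0.43 and -0.15 with overlapping groups. The dimmer probe sets for psma5.S differed by 0.16 and 0.30, opposite in sign to the brightest. Psma7.S, at 0.16, was the exception in direction, with overlapping groups.

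Among 9 core beta subunit genes, those of the standard proteolytic sites and those of the immunoproteasome were set apart. Psmb5, psmb6 and psmb7 carry the standard sites, while in mammals psmb8 and psmb9 take the places of psmb5 and psmb6 in cells stimulated by interferon. Psmb9.S read 8.1, 14.9 and 19.4 under ICD alone, below background on each array, and 64.5 and 45.0 once FoxJ1 was added. The background level, set on each array by the brightest of 20 control probe sets for foreign sequences, ranged from 16.9 to 28.4. With the ICD arrays set to their background levels, the FoxJ1 arrays were 2.20-fold higher, an estimate that leaves out the spread between arrays. On the log2(signal + 16) scale psmb9.S differed by 1.24 (95% interval from 0.67 to 1.80, limma adjusted p = 0.0248). It passed the filter on dim probe sets only through the FoxJ1 arrays: its mean log2(signal + 16) was 4.90 under ICD alone and 6.13 with FoxJ1, against a limit of 5.15. With no filter, the adjusted p of psmb9.S was 0.0380. The other, psmb8.L, read 12.0, 4.5 and 15.8 against 34.9 and 33.7. It was also at background on all ICD arrays, and 1.40-fold higher with these set to background. It was too dim to enter the test, and with no filter its adjusted p was 0.0709.

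The standard counterparts were bright and had overlapping groups. Psmb6.L, the counterpart of psmb9, read 1004.1, 836.9 and 819.4 against 706.1 and 854.9. The difference was -0.18, with a 95% interval from -0.67 to 0.31. Psmb5.L read 880.5, 627.8 and 593.3 against 520.1 and 595.0, a difference of -0.30 with an interval from -0.87 to 0.26. Psmb7.S differed by -0.09, and of the beta subunits without a proteolytic site, psmb1.S differed by 0.24, psmb4.L by -0.20, psmb2.L by -0.28 and psmb2.S by -0.27. Of 8 tested genes of this role 1 rose and 0 fell, where 4.48% of all probe sets were higher and 2.99% lower. The median of the 8 was -0.19. That median lay between -0.05 and -0.23 when any 1 of the 5 arrays was left out. Whether the change of psmb9.S differs from that of psmb6.L was not tested.

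**Figure D2:**
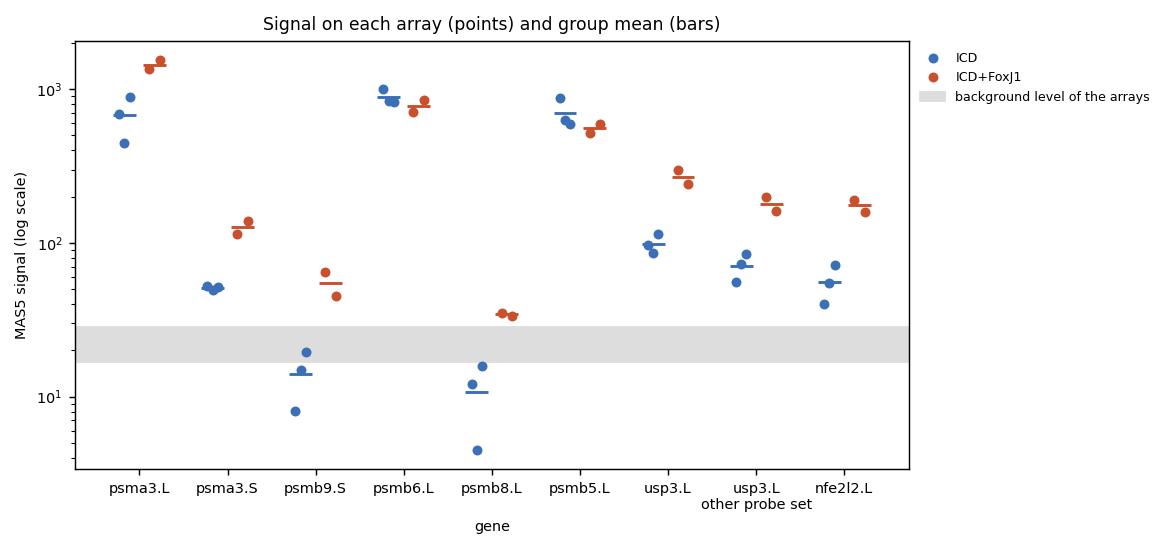
MAS5 signal (log scale) of 8 genes on each array, blue for the 3 ICD samples and red for the 2 samples with FoxJ1, with bars at the group means and the grey band spanning the background levels of the arrays. The groups are apart in psma3.L, psma3.S, psmb9.S, psmb8.L, both probe sets of usp3.L and nfe2l2.L, and they overlap in psmb6.L and psmb5.L; psmb9.S and psmb8.L lie within or below the background band on the ICD arrays and above it with FoxJ1.

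Of the regulatory particle, 24 genes were tested and 0 passed the test. At an unadjusted p under 0.05, 2 were higher (psmd8.S and psmd10.L) and 1 lower, where 12.3% of all probe sets were higher and 12.3% lower. The 6 ATPase genes had a median difference of -0.10, and it lay between -0.07 and -0.17 when any 1 of the 5 arrays was left out. Psmc3.L read 129.2, 56.4 and 86.1 against 42.5 and 44.2, without overlap. Its difference of -0.79 was the lowest of the regulatory particle, and its SE was 0.32 (limma adjusted p = 0.178). Psmc1.L, psmc5.L and psmc4.L differed by -0.35, -0.12 and -0.08, psmc5.S by 0.01 and psmc3.S, whose signals lay between 5.4 and 40.2, by 0.14.

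The 18 other genes of the regulatory particle had a median of 0.07, and 11 lay above 0, where 5585 of 11618 probe sets did. That median was -0.0045 without ICD replicate 2, with 9 above 0, and 0.13 and 0.14 without ICD replicate 1 and ICD+FoxJ1 replicate 1, with 14 above 0 in each. Psmd8.S, a subunit of the lid that covers the ATPases, read 165.0, 113.8 and 127.7 against 214.0 and 283.6, with no overlap. Its difference was 0.81 (SE 0.26, limma adjusted p = 0.111). Psmd10.L, whose product, known as gankyrin, helps to assemble the particle, differed by 0.67, with 87.4, 69.7 and 84.7 against 165.9 and 113.0. Further assembly chaperones, psmd9.S and psmd5.L, differed by 0.55 and 0.34, so that with psmd10.L they were among the 11 above 0.

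The subunits that handle ubiquitin showed smaller values than psmd8.S and psmd10.L, as did other genes of the particle. Psmd14, the deubiquitinase of the lid, differed by 0.05 in the L copy and 0.17 in the S copy. Psmd4.S, a ubiquitin receptor, differed by -0.31, and psmd2, a large scaffold subunit, by 0.19 in the L and 0.09 in the S copy. The brightest gene of the particle, psmd13.S, read 1015.3, 920.0 and 1147.0 against 932.0 and 1172.9, and the groups overlapped. Its difference was 0.03, with an interval from -0.46 to 0.52. The lid genes psmd3.S (0.30), psmd7.L (-0.16), psmd12.S (-0.20), psmd6.L (-0.07) and psmd6.S (-0.01) did not pass either, and neither did psmd1.L (-0.48) and psmd1.S (0.28). For psmd3.S a dimmer probe set differed by -0.13 with overlapping groups, opposite in sign to the brightest.

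Of 8 tested activators, inhibitors and assembly factors, 0 passed the test, and 1 was higher and 1 lower at an unadjusted p under 0.05. The shares of all probe sets were 12.3% higher and 12.3% lower. Psmg1.L, a chaperone that pairs alpha subunits when the core is assembled, read 534.0, 407.0 and 385.3 against 239.2 and 213.0. The arrays with FoxJ1 were thus lowest, and the difference of -0.91 came near the threshold (SE 0.24, limma adjusted p = 0.0621). Its partner psmg2.L differed by -0.52 with no overlap, whereas psmg3.L differed by 0.29. Psme1.S, an activator that opens the core and is best known beside the immunoproteasome, read 34.6, 22.8 and 17.9 against 35.2 and 62.1. It differed by 0.64 (limma adjusted p = 0.1999), and its signal of 17.9 lay below the background of that array. Its partner psme2.L was at background on all 5 arrays. The nuclear activators psme3.L and psme4.L differed by -0.34 and -0.19, psme3ip1.S, which encodes a partner of psme3, by 0.22 and the inhibitor psmf1.L by -0.03.

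The 4 E1 genes included none that passed the test, nor any with an unadjusted p under 0.05. Uba1.S, the main ubiquitin-activating enzyme, read 1064.3, 812.7 and 923.1 against 586.2 and 721.2, without overlap. The difference was -0.50 (limma adjusted p = 0.209), while the dim probe set for uba1.L, at 0.28, lay on the other side. Uba2.L, a subunit of the enzyme that activates the ubiquitin-like protein SUMO, differed by -0.40, and uba3.S, of the enzyme that activates Nedd8, by 0.33.

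Of 20 tested E2 genes, 0 passed the test, and 0 were higher and 3 lower at an unadjusted p under 0.05. Of all probe sets, 12.3% were higher and 12.3% lower at that p. Ube2e2 read 243.2, 306.1 and 225.3 against 151.4 and 105.9, again without overlap. It differed by -0.93 (SE 0.26, limma adjusted p = 0.0760), the lowest value of all 92 genes. Ube2g1.S read 706.5, 723.1 and 669.7 against 442.5 and 425.4. The replicates of either group lay close together, and the difference was -0.67 (SE 0.20, limma adjusted p = 0.0880). Ube2g2.L, the related E2 of protein disposal at the endoplasmic reticulum, differed by -0.54 without overlap, while ube2j2.L, another E2 of that membrane, differed by 0.21.

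The median over the 20 E2 genes was -0.04, and it lay between -0.05 and -0.12 when any 1 of the 5 arrays was left out. Ube2l3.S, the brightest of all 92 genes, read 1950.1, 1666.5 and 1788.3 against 1736.0 and 1696.6, a difference of -0.07 with an interval from -0.49 to 0.35. Ube2n.S, which with ube2v1 and ube2v2 builds signalling chains, differed by -0.17, and a dimmer probe set for it by 0.15. Ube2v1.L differed by 0.26 and ube2v2.S by -0.23. The E2 genes of the anaphase-promoting complex differed by 0.17 (ube2c.L), -0.24 (ube2c.S) and 0.00041 (ube2s.S). Ube2a.L and ube2b.S, whose products modify chromatin and damaged replication forks, differed by 0.17 and -0.13, and ube2m.L, the E2 of Nedd8, by -0.12. Ube2d4.L differed by 0.48 without overlap, and ube2k.S, ube2e1.L, ube2q2.L and ube2r2 lay between -0.19 and 0.08. Ube2t.S was at background on all 5 arrays. The largest positive value, 0.72 in ube2h.L, had an SE of 0.49 and rested on a spread from 102.3 to 420.5 among the ICD arrays.

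Among 17 tested Usp genes usp3.L rose and 0 fell, where 4.48% of all probe sets were higher and 2.99% lower. The median of the 17 was -0.24. Usp3.L read 96.7, 85.7 and 114.8 under ICD alone and 295.8 and 243.2 once FoxJ1 was added. The groups lay far apart, and the difference was 1.31 (SE 0.24, limma adjusted p = 0.0188), the highest of all 92 genes. Its second probe set, to another sequence record, read 55.7, 73.1 and 84.4 against 197.7 and 160.3. It rose too, by 1.17 (SE 0.26, limma adjusted p = 0.0342).

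The other Usp genes lay mostly below 0, 14 of the 17 in all, where 6033 of 11618 probe sets lay below 0. Without ICD replicate 1, 11 of the 17 lay below 0, and 13 or 14 did without any other single array. The median of the 17 lay between -0.18 (without ICD+FoxJ1 replicate 2) and -0.29 (without ICD replicate 2) when single arrays were left out. With the mean over the probe sets of a gene, 13 lay below 0 and the median was -0.14. Usp10.S, a deubiquitinase of the cytoplasm, read 418.8, 232.3 and 259.9 against 145.2 and 154.9 and differed by -0.90 (limma adjusted p = 0.113). Its L copy differed by -0.44. Usp36.S, of the nucleolus, read 116.4, 147.8 and 175.4 against 90.5 and 67.1 and differed by -0.77 (limma adjusted p = 0.127). In all 3 genes both arrays with FoxJ1 lay below the ICD arrays, which held for 8 of the 17 and for 23.0% of all probe sets. Usp5, which takes apart free ubiquitin chains, differed by -0.24 in the L and -0.35 in the S copy, although a dimmer probe set for usp5.S differed by 0.29.

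Usp7.S, a regulator of chromatin proteins, differed by -0.25, usp14.S, which works on the proteasome itself, by -0.14, and usp1.S, of DNA repair, by -0.57. For usp8.L, a deubiquitinase of endosomes, the brightest probe set differed by -0.34 and the second by 0.55, so that its direction was not settled. The positive values besides usp3.L were those of usp20.L (0.45), whose signals lay between 25.1 and 49.7, and usp44.S (0.27), whose L copy usp44.L differed by -0.15. The remaining Usp genes were usp25.L, at -0.52, and usp4.L, usp38.L and usp12b.S, at -0.02, -0.04 and -0.08, all with overlapping groups. Usp1.L was at background on all 5 arrays.

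Both the L and the S copy were tested for 17 genes. The copies had the same sign in 9 of them, and psma3 was the only pair with a member past the threshold. In psma1, psma6, usp5 and usp10 both copies lay below 0, with no overlap between the groups in their brightest probe sets. Both arrays with FoxJ1 lay below all ICD arrays in 23.0% of all probe sets. A dimmer probe set for usp5.S differed by 0.29, with overlap. In psmb2 and psmd6 both copies also lay below 0, with overlapping groups, and in psmd14 and psmd2 both lay above 0, with overlap. The copies of psmd8, psmd1 and uba1 were among the 8 pairs on opposite sides of 0. In psmd8 the S copy differed by 0.81 and the L copy by -0.07. In psmd1 they differed by 0.28 (S) and -0.48 (L), and in uba1 by -0.50 (S) and 0.28 (L). The difference between copies was not tested, and probe sets may bind RNA of both.

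**Figure D3:**
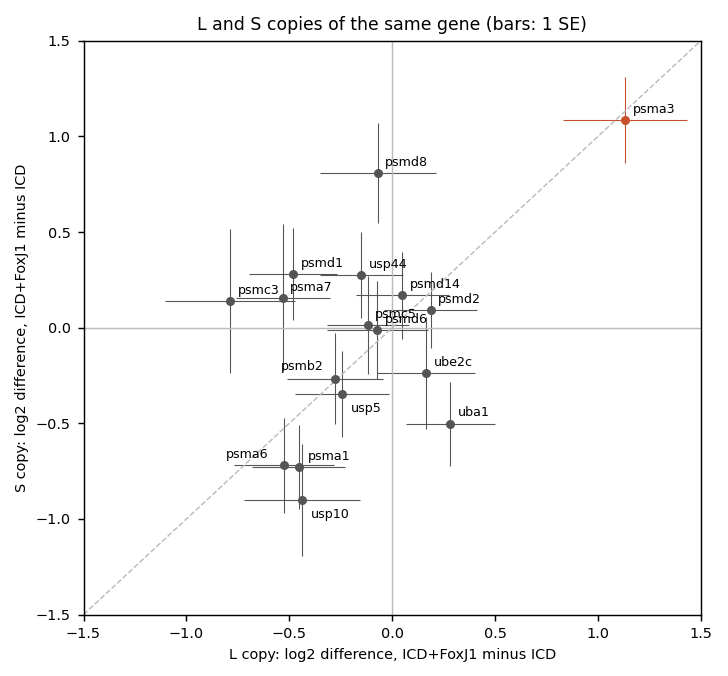
Log2 difference (ICD with FoxJ1 minus ICD alone) of the S copy against that of the L copy for 17 genes with both copies tested; bars are 1 SE and the dashed line marks equal values. Psma3, in red, stands alone at the upper right, with 1.13 in the L and 1.09 in the S copy.

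The ICD samples themselves differed, over all probe sets as well as in proteasome genes. Over the tested probe sets, the log2 signals of ICD replicate 1 correlated at 0.927 and 0.929 with those of replicates 2 and 3. The correlation between replicates 2 and 3 was 0.966. Of the 43 tested core and regulatory subunit genes, psmd5.L, psmd9.S and psmd10.L included, 27 (62.8%) were highest among the ICD arrays on replicate 1. The same held for 35.5% of all probe sets. Replicate 1 was the lowest ICD array in 5 (11.6%) of the 43, against 42.2% of all probe sets. In 27 (62.8%) of the 43 the lowest ICD array was replicate 2, against 28.5% of all probe sets. After each gene was centred on its mean over the 5 arrays, these genes had medians of 0.17, -0.15 and 0.02 in the 3 ICD samples, in replicate order, and of -0.13 and -0.02 in the FoxJ1 samples. The FoxJ1 arrays thus lay within the range of the ICD arrays. The median difference of the 43 genes was -0.08, and it ranged from -0.20 without ICD replicate 2 to 0.025 without ICD replicate 1.

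**Figure D4:**
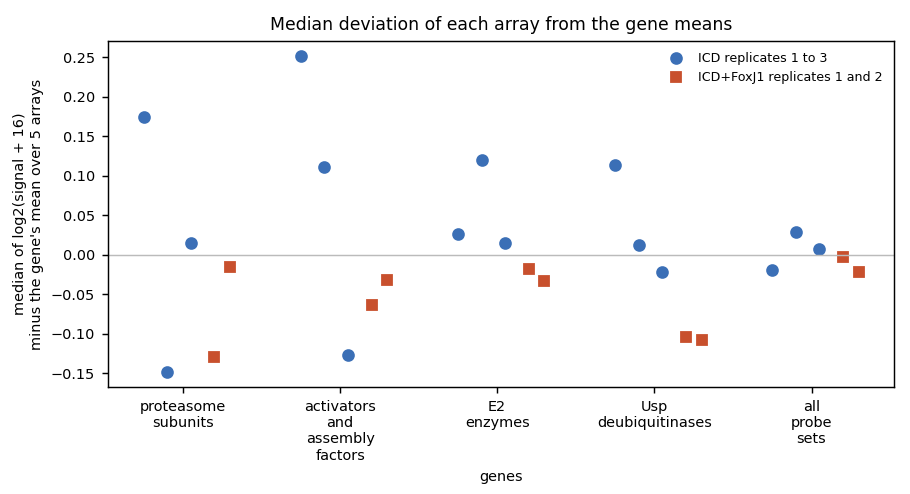
Median, over the genes of each set, of log2(signal + 16) minus the mean of the gene over 5 arrays; blue points are ICD replicates 1 to 3 from left to right and red squares are ICD+FoxJ1 replicates 1 and 2. In the proteasome subunits ICD replicate 1 is at 0.17 and ICD replicate 2 at -0.15, with the FoxJ1 arrays between them, whereas all probe sets together stay within 0.03 of 0.

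Control transcripts added before labelling split the arrays across the groups. The 24 probe sets for them had a median signal of 318 to 368 on 3 arrays, namely ICD+FoxJ1 replicate 1 and the first and second ICD replicates, and of 1.90 to 2.95 on the others. Within the arrays that had this signal the differences were 0.97 in psma3.S, 1.56 in psmb9.S and 1.54 in usp3.L, and within those that lacked it 1.20, 0.79 and 0.99. With the split as a block, the limma adjusted p was 0.0475 for usp3.L, 0.0547 for psma3.S and 0.0656 for psmb9.S, so that usp3.L alone passed. The median of the 43 subunit genes was -0.21 within the first set of arrays and 0.02 within the second.

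A further 9 lists covered the same pathway, ubiquitin-like proteins, and autophagy and the lysosome. They held 117 tested genes in all outside the chosen names. Of these, 1 rose and 0 fell, against 4.48% of all probe sets that were higher and 2.99% that were lower. The gene that rose was nfe2l2.L, a transcription factor of the response to oxidative stress that in mammals also induces proteasome genes. It read 40.2, 54.8 and 71.9 against 191.2 and 159.9, without overlap and with a difference of 1.44 (SE 0.27, limma adjusted p = 0.0206). Nfe2l1.S, the related factor that in mammals raises proteasome genes when the proteasome is blocked, differed by 0.08. Both belong to the list of shuttles, the Vcp segregase and proteasome regulators, in which 1 of 25 rose and the median was 0.03. In this list bag6.S, a chaperone for misplaced membrane proteins, differed by 0.72 and ubxn4.S, a cofactor of Vcp, by 0.88. The L copy of bag6 differed by -0.13 with overlapping groups.

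None of the other lists held a gene past the threshold. Among 23 genes of cullin ligases and the signalosome the median was -0.01, and cops2.L, fbxo5.S and cul1.L had the smallest p, with 0.56, -0.65 and 0.39. The S copy of cul1 differed by -0.07. The 12 genes of the anaphase-promoting complex had a median of -0.05, led by anapc16.L (0.50), cdc23.L (0.35) and fzr1.L (-0.51). The S copy of cdc23 differed by -0.07. The list of HECT and RING-between-RING ligases also held the N-recognin ubr2. It had 10 tested genes and a median of 0.07, led by hace1.L (0.73), nedd4l.S (0.46) and smurf2.S (0.31). Hace1.L read 10.7, 25.1 and 15.9 against 42.7 and 34.0 and passed the filter on dim probe sets only through the FoxJ1 arrays. The 5 ligases tied to the Notch pathway had a median of 0.11, with rnf8.S at 0.30, dtx2.S at 0.30 and dtx4.L at -0.23. The list of deubiquitinases outside the Usp family, in which 4 of 16 tested genes were senp genes for proteases of SUMO or Nedd8, had a median of -0.14, with otud6b.L at -0.70, uchl3.L at 0.60 and bap1.L at -0.59.

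Likewise, 10 genes of ubiquitin precursors and ubiquitin-like proteins, a list that also held atg5, had a median of -0.22, with fau.L at -0.51, map1lc3b.S at -0.47 and gabarap.L at 0.35. The 3 further E1 and E2 genes had a median of -0.18, with sae1.L, the partner of uba2, at -0.82, atg3.S at 0.35 and ufc1.S at -0.18. The 13 genes of autophagy and the lysosome had a median of 0.10, with nbr1.L at 0.79, atg16l1.S at -0.77 and wipi2.L at -0.58. The L copy of atg16l1 differed by 0.52, with both arrays with FoxJ1 above all ICD arrays, so that the copies lay on opposite sides of 0. At an unadjusted p under 0.05, 4 genes of these 8 lists were higher and 5 lower, where 12.3% of all probe sets were higher and 12.3% lower. Hace1.L was among the 4.

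Markers of multiciliated cells moved with the groups: 10 of 13 rose, with a median difference of 4.06. Tekt2.L, among the 10, passed the filter only through the FoxJ1 arrays. The summed signal of the 13 was 3427 to 8138 on the ICD arrays and 24319 to 30457 with FoxJ1. Such sums weigh bright probe sets most: tubb4b.L, which did not pass, read 2623.9, 3422.2 and 4379.9 against 5346.6 and 7670.3. Of 18 epidermal and goblet cell markers, 5 fell, with sums of 58981 to 77272 against 53046 to 64962. Ionocyte markers gave 2 higher and 2 lower of 8, with sums of 1057 to 1164 against 1066 to 1240. Neural markers gave 4 lower of 10, with sums of 1182 to 1869 against 1060 to 1138, and nes.S, elavl3.L and neurog2.L were at background on all arrays. Among the 4, ncam1.S and snai2.S passed the filter only through the ICD arrays. Of the 10 neural markers 7 lay below 0 and 3 above. Among those above were sox3.S, at 1.27 (limma adjusted p = 0.0690), and sox3.L, at 0.61. Of 15 mesoderm, muscle and endoderm markers, 10 were at background on all arrays, among them the endoderm gene sox17a in both copies. Of the 3 tested 1 rose and 1 fell, with sums over the 15 of 679 to 783 against 429 to 438. Ckm.L, which fell, was the brightest of the 15 on every array, with 493.7, 499.6 and 634.3 against 207.4 and 213.4. Myod1.L, which rose, read 20.6, 21.7 and 21.3 against 99.5 and 48.4. In such bulk samples, a change in the share of a cell type and a change of RNA per cell cannot be told apart, and the part of these shifts in psma3.S, psmb9.S, usp3.L and nfe2l2.L was not tested. No probe set carried the symbol foxj1, so the injected gene was not analysed here.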

How the data were processed

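The authors deposited 1 signal intensity per probe set and array on a linear scale, which the submitters' processing notes trace to MAS5. The MAS5 version and settings are not stated in those sources. By the values, each array had been scaled to a trimmed mean (2% cut at either end) of 200.02 to 200.03. Of 15611 probe sets, 120 controls were left out. Symbols came from GEO's platform annotation, all 96 members matched RefSeq (Xenopus_laevis_v10.1), and 9 probe sets with symbols of both copies were not used as members.

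Signals were compared as log2(signal + 16) after the dimmest 25% by mean log2 signal were dropped, with limma 3.58.1 in R 4.3.3 (lmFit, eBayes with a variance trend, all 5 arrays, no covariate). Two-sided p-values were adjusted after Benjamini-Hochberg over 11618 probe sets, with a threshold of 0.05, and the code was tested on simulated data. The added 16 makes the differences of dim probe sets too small. Background was the highest of 20 control probe sets per array. For the fold of a gene at background in a group, the arrays of that group were set to it. Arrays give no depth, and their small number limits the precision.

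The members, the lists of other pathway genes and of cell type markers (multiciliated, epidermal and goblet, ionocyte, neural, mesoderm with muscle and endoderm) and the tests were chosen with earlier results of these data known. The rule named every member past the threshold, and per role the 3 with the smallest p and the 2 brightest. It also named both copies where both were tested, members whose probe sets disagreed and members at background in a group. From each list it named the 3 genes with the smallest p. This gave 63 members. The other members in the text were added after their values were seen. Alternatives varied the added constant, the filter, the scaling, the fit, the arrays used, the blocks and the threshold. Replicates 1 and 2 share only their number between the groups, since the labels state no pairing. Figures were drawn with matplotlib 3.10.9.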

Additional observations from a re-analysis of the deposited data

How the results depend on the processing

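The count of 3 genes higher and 0 lower was the same with 1 or 64 added before logs, with no filter, with quantile normalization, with median centring, without the variance trend and with the mean over the probe sets of a gene. Leaving out the dimmest 50% gave 2 higher of 80 tested, since psmb9.S was then not tested. With array weights 5 were higher and 5 lower, and the median difference of the proteasome subunits was -0.0038 in place of -0.08. At a threshold of 0.10, 4 were higher and 4 lower (psma1.S, psmg1.L, ube2e2 and ube2g1.S). Leaving out single arrays gave 0 to 4 higher, 0 to 3 lower and a median of the proteasome subunits from -0.20 to 0.025. With the split by poly-A control signal, which no label names, as a block 1 was higher, and with the 3 arrays that had poly-A signal 0 were higher and the median was -0.21. With the replicate block over the 4 arrays numbered 1 and 2, 0 were higher, against 3 in the same 4 arrays without it. The correlation of the deviations of same-numbered arrays was -0.057 for number 1 and -0.321 for number 2. Deviations of the 2 FoxJ1 arrays from their mean mirror each other, so ICD replicate 2 gave 0.321 with ICD+FoxJ1 replicate 1. These correlations therefore cannot decide whether arrays were paired. In every alternative that tested them, psma3.S, psmb9.S and usp3.L stayed above 0. The groups did not overlap in these genes, so leaving out or blocking arrays could not change that sign. The cause of these moves was not tested.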

Other observations

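Of 9 probe sets that the annotation assigns to both copies of a member, 1 rose, the one for psma3, and 0 fell. For psmc2, psmc6 and ube2e3, genes with no probe set of a single copy, these common probe sets gave differences of 0.19 (SE 0.25), -0.23 (SE 0.25) and -0.04 (SE 0.22), with overlapping groups in all 3. The common probe set for uba1, whose copies lay on opposite sides of 0, differed by 0.22, and that for psmd1 by -0.14.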
